A study of Mus musculus with 9 samples.

Results

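The Wnt ligands, receptors and antagonists examined here were the protein-coding genes named Wnt, Fzd, Sfrp, Dkk or Rspo with a number, together with Axin2, Lgr5, Nkd1, Nkd2, Notum, Znrf3, Rnf43, Lef1, Tcf7, Wif1 and Sost. The rule gave 52 of the 35675 genes in the files: 19 Wnt ligands, 10 Frizzled receptors, 11 secreted antagonists, 7 genes of the R-spondin axis and 5 genes that encode TCF factors or feedback regulators of the pathway. The rule picks members by name and uses no measured value, but it was set with earlier results of these data known. Estimated counts were summed per gene over its Ensembl transcripts, and 42 of the 52 genes passed the filter on low counts.

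The 9 libraries of polyadenylated RNA came from embryonic fibroblasts of Dmdmdx mice (MEFs). All 9 share this genotype, a premature stop codon in the dystrophin gene Dmd that serves as a model of Duchenne muscular dystrophy. The MEF group (3 libraries) had no treatment, the MyoD group (3) had ectopic MyoD, the transcription factor that starts the skeletal muscle programme, and the MyoD F/R/C group (3), called F/R/C here, had MyoD together with small molecules. The labels give neither the vector, the doses, the times nor the meaning of the 3 letters. In published work on this kind of reprogramming they stand for forskolin, which raises cAMP, RepSox, an inhibitor of a TGF-beta receptor, and an inhibitor of the kinase GSK3 from the CHIR series; that meaning is background and was not read from the files. Nothing in the labels tells whether libraries of a group are separate cultures. Each p-value rests on how far libraries of the same group differ, and so speaks for these libraries only. In MEF and MyoD these differences were partly shared by replicate number. Deviations from the group mean correlated at 0.632 to 0.729 for equal numbers and at -0.593 to 0.0553 for unequal ones. With F/R/C libraries the correlations at equal numbers were 0.0837 to 0.164. The source of the differences within groups was not tested.

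Libraries held 21112071 to 24291056 estimated counts. A count of 0 allows up to 3 counts, or 0.113 to 0.144 CPM (counts scaled to effective library size), and such limits cover counting error only. The 8 skeletal muscle markers examined summed to 4.03 to 432 CPM in MEF, 760 to 2513 CPM in MyoD and 26810 to 36840 CPM in F/R/C libraries, and the 8 fibroblast markers to 18080 to 80530, 7574 to 33850 and 5260 to 7954 CPM. The collagen genes Col1a1, Col1a2 and Col3a1 made up most of the fibroblast sums. With F/R/C, edgeR called 2 of the 8 fibroblast markers lower against MEF (Col1a1 and Col1a2) and 1 against MyoD (Col1a2). The other 6 and 7 were not called, although 7 of the 8 had negative log2 fold changes against MEF. MEF replicate 3 held the 432 CPM of muscle markers, against 4.03 and 5.21 CPM in MEF replicates 2 and 1. The 8 macrophage markers summed to 2.82 to 15.1 CPM, the 7 endothelial to 1.34 to 3.37 CPM and the 7 epithelial to 0 to 7.94 CPM over the 9 libraries, with the epithelial keratins Krt5 and Krt14 at 0 counts in all of them. Some of these low markers rose from MEF to F/R/C libraries. Epithelial sums were 0.140 to 1.75 CPM in MEF and 3.82 to 6.15 CPM in F/R/C libraries, with Cdh1 at 0.0770 ± 0.0960 and 2.2 ± 0.82 CPM (edgeR adjusted p = 0.00616) and Krt8 at 0 counts in MEF and 0.805 ± 0.211 CPM in F/R/C (0.00765). Of the 8 macrophage markers 4 were tested against MEF, and 2 were called higher. Itgam stood at 0.0907 ± 0.0497 and 3.78 ± 0.993 CPM (0.000440) and Cd68 at 2.04 ± 0.524 and 5.30 ± 1.10 CPM (0.0154). The other 2 tested macrophage markers had negative log2 fold changes and were not called. The 7 cartilage and bone markers summed to 49.8 to 139 CPM in MEF and 22.9 to 37.8 CPM in F/R/C, and the 7 neural and glial markers to 13.8 to 71.7 CPM over the 9 libraries. Mitochondrial genes took 0.819% to 1.22% of the counts in MEF and MyoD and 1.54% to 3.09% in F/R/C libraries. The part of these cell markers and of the mitochondrial share in the results below was not tested. In bulk RNA, fewer cells of a type and less RNA per cell cannot be told apart.

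Wnt proteins are secreted ligands that bind Frizzled receptors and the co-receptors Lrp5 and Lrp6. In the branch through beta-catenin, binding stops the destruction complex, which contains Axin, Apc and GSK3, from marking beta-catenin for degradation, and beta-catenin then activates genes with the TCF and LEF factors. Sfrp proteins and Wif1 bind Wnt ligands, Dkk1 and Sost bind the co-receptors, Notum removes a lipid that Wnt ligands need, and R-spondins act through Lgr receptors to keep the ligases Rnf43 and Znrf3 from removing Frizzled. In muscle, Wnt signals take part in the formation of the embryonic muscle lineage and in regeneration.

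In F/R/C against MEF libraries 7 Wnt genes rose and 10 fell of the 42 tested. The 7 were Wnt4, Fzd9, Fzd3, Sost, Rspo4, Nkd1 and Tcf7. The 10 were Wnt5a, Fzd1, Fzd4, Fzd5, Fzd8, Dkk2, Dkk3, Sfrp4, Rspo2 and Rspo3. These 17 genes are 40.5% of those tested, close to the 37.6% called among all 15714 genes (19.5% higher and 18.1% lower), so the share called is not particular to the Wnt genes. The median log2 fold change was -0.32 over the 42 genes and -0.04 over all genes. In F/R/C against MyoD libraries 4 rose (Wnt4, Fzd9, Rspo4 and Nkd1) and 10 fell (Wnt5a, Fzd4, Fzd5, Fzd8, Fzd10, Dkk2, Dkk3, Sfrp4, Rspo2 and Rspo3), or 33.3% against 33.9% of all genes (17.8% higher, 16.1% lower), with a median of -0.22 against -0.02. Genes were tested with edgeR's quasi-likelihood F test in 1 fit over the 9 libraries, called at an adjusted p under 0.05. Both comparisons use the same F/R/C libraries, so their 4 shared rises and 9 shared falls are not independent.

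Changes held under a varying number of settings. Of the 17 calls against MEF 11 were kept under each of the 18 alternative settings tried, and of the 14 calls against MyoD 8. Wnt4, Fzd9, Rspo4, Fzd5, Fzd8, Dkk2 and Rspo3 kept both. The setting without the third MEF and MyoD libraries together, 1 of the 18, was chosen after their values were seen. The 7 higher genes against MEF were 4 without MEF replicate 1 or F/R/C replicate 2, the 4 higher against MyoD were 7 without MyoD replicate 3, and the 10 lower against MyoD were 5 without F/R/C replicate 1 or 3.

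**Figure D1:**
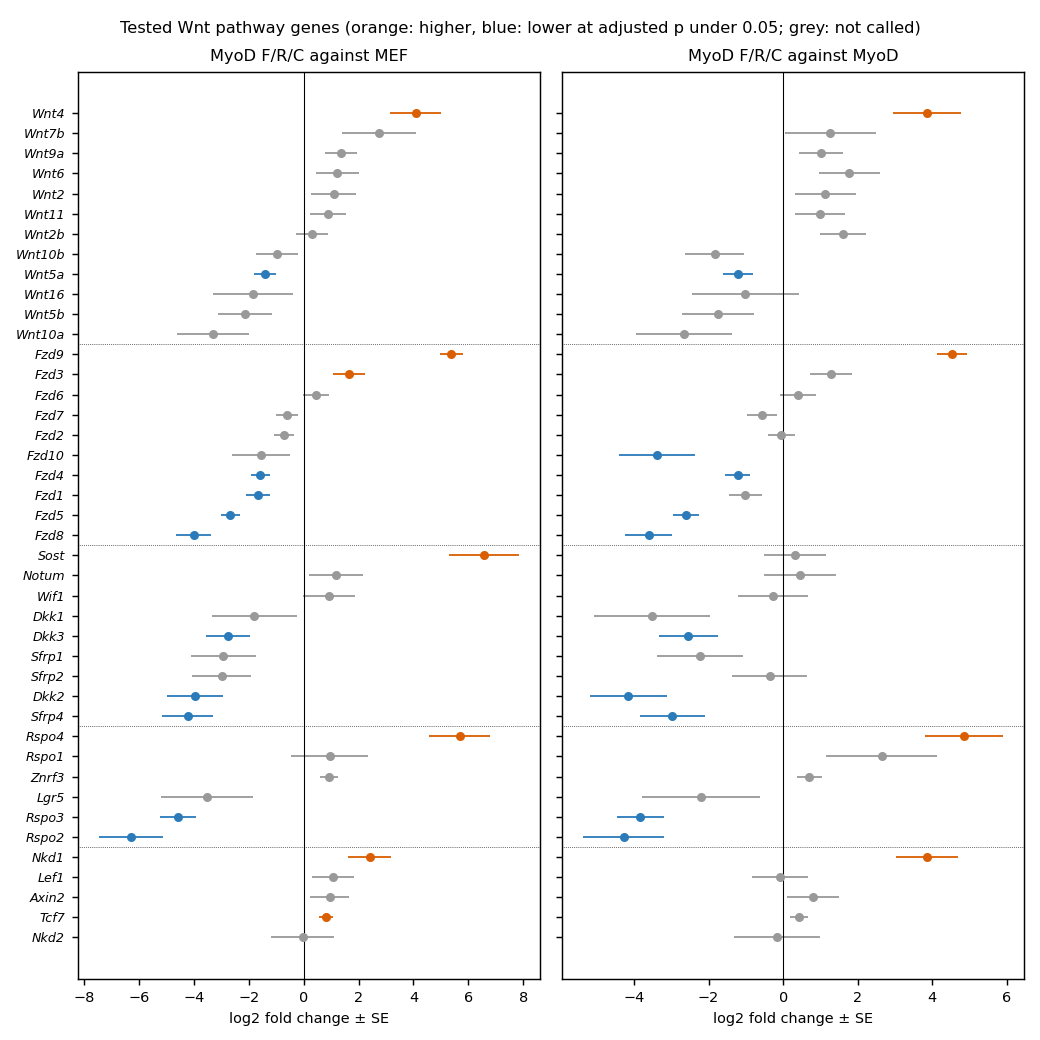
Log2 fold change ± SE of the 42 tested Wnt genes in F/R/C against MEF (left) and against MyoD libraries (right), from the edgeR fit over 9 libraries; dotted lines separate ligands, receptors, secreted antagonists, the R-spondin axis, and TCF factors with feedback regulators. Each role except the last holds genes called in both directions against MEF (7 higher and 10 lower in all).

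The 4 genes that rose in both comparisons encode a ligand, a receptor, an R-spondin and a feedback regulator. RefSeq promoters on GRCm38.p6 were at hand for 35 of the 52 genes (43 promoters), and the 250 bases before the start are shown for these 4 and, for contrast, for Fzd5, the gene of smallest p that fell in both. Capitals mark CAGCTG and CACCTG, E-box letters bound by MyoD and other bHLH factors, read on both strands.
Nkd1 (chr8:88527383-88527632, plus strand): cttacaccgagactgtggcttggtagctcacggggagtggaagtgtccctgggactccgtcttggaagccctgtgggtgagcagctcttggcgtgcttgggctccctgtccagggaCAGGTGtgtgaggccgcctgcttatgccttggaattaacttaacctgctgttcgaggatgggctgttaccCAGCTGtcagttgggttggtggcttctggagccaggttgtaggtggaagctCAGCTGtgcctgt
Wnt4 (chr4:137277385-137277634, plus strand): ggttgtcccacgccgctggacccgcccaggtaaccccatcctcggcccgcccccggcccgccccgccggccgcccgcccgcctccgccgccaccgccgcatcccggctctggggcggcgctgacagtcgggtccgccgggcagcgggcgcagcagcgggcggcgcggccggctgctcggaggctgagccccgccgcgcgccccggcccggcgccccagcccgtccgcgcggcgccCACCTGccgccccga
Rspo4 (chr2:151842677-151842926, plus strand): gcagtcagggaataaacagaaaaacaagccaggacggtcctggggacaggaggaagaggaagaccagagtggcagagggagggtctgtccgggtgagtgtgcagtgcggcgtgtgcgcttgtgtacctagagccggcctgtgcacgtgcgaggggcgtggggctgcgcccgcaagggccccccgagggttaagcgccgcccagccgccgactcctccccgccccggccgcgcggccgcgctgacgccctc
Fzd9 (chr5:135251048-135251297, minus strand): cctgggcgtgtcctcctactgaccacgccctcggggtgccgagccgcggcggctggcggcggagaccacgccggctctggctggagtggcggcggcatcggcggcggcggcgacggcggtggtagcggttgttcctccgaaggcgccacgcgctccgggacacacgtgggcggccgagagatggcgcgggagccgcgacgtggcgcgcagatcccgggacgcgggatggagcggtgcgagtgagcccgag
Fzd5 (chr1:64737751-64738000, minus strand): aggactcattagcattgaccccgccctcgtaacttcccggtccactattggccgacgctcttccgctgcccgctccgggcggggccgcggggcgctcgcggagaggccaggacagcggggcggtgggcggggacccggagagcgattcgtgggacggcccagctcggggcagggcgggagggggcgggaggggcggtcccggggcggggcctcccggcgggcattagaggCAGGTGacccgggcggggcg
Nkd1 held CAGCTG at bases 64 to 59 and 13 to 8 before the start and CACCTG at 134 to 129. This window lies inside the annotated Nkd1 gene, which begins at base 88521354 of chromosome 8, so the start is an internal one. Wnt4 held CACCTG at 15 to 10, as did Fzd5 at 20 to 15, and Rspo4 and Fzd9 held neither. No motif letters overlapped in these 5 windows. In the same window CAGCTG or CACCTG stood in 37.2% of the 43 Wnt promoters and in 27.7% of the 32851 promoters of the table. Counted by gene instead, over any of its promoters, 15 of the 35 Wnt genes held one. Of the genes called against MEF that have a promoter there, 4 of the 6 higher ones (Nkd1, Wnt4, Sost and Tcf7) and 1 of the 4 lower ones (Fzd5) did. These counts by gene cannot be set beside the shares of promoters. The letters bound by TCF and LEF factors were searched as CTTTGAA, as the variant CTTTGAT, as the further variant CTTTGTA and as the last variant CTTTGTT, and stood in 11.6% of the Wnt promoters and 14.8% of all, and in 0 of these 10 genes. The cAMP response element TGACGTCA stood in 0 of the 43 Wnt promoters and in 1.55% of all. These letters are a description of the windows and not of bound factors.

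Among ligands, Wnt4 rose and Wnt5a, the ligand of highest mean level per length in each group, fell. Of the 19 Wnt genes 12 were tested, and against MEF 1 rose, 1 fell and 10 were not called. Wnt4 (ENSMUSG00000036856, chromosome 4, GRCm38), a ligand with roles in kidney, gonad and muscle development, stood at 0.093, 3.42 and 1.85 CPM in MEF replicates 1 to 3, at 1.07, 2.08 and 3.18 CPM in MyoD and at 24.3, 29.6 and 37.7 CPM in F/R/C libraries. Every F/R/C library lay above every other library, and MEF and MyoD overlapped. The log2 fold change was 4.08 ± 0.92 (SE) against MEF (adjusted p = 0.00896) and 3.85 ± 0.91 against MyoD (adjusted p = 0.0126). Wnt5a, a ligand known for signalling without beta-catenin, stood at 99.6, 231 and 145 CPM in MEF, 112, 174 and 132 CPM in MyoD and 66.6, 79.6 and 32.6 CPM in F/R/C libraries. The F/R/C libraries were the 3 lowest, with a log2 fold change of -1.41 ± 0.40 against MEF (adjusted p = 0.0230) and -1.22 ± 0.40 against MyoD (adjusted p = 0.0422). Of its main transcripts, ENSMUST00000063465 held 1179, 3083 and 1671 counts in MEF and 660, 819 and 293 in F/R/C, and ENSMUST00000112272 held 911, 2571 and 1422 counts in MEF and 878, 896 and 385 in F/R/C. By these counts both were lower in each F/R/C library than in any MEF library. The Wnt5a calls were narrow. Against MEF the call ended without MEF replicate 2 and without F/R/C replicate 1 or 3 (adjusted p = 0.0533 to 0.0710), and with counts scaled from TPM (0.0517). Against MyoD it ended without any 1 MyoD library and without F/R/C replicate 1 or 3 (0.0593 to 0.116), and with counts scaled from TPM (0.0731).

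Wnt5b, the close relative of Wnt5a, stood at 45.4, 101 and 8.49 CPM in MEF, 56.7, 55.8 and 4.14 CPM in MyoD and 11.4, 11.4 and 12 CPM in F/R/C libraries. The third library of MEF and of MyoD lay below the F/R/C libraries and the other libraries far above, so the groups overlapped and Wnt5b was not called (-2.15 ± 0.98, adjusted p = 0.115 against MEF; -1.75 ± 0.97, 0.193 against MyoD). It was called against MEF without MEF replicate 3 or MyoD replicate 3 (adjusted p = 0.0400 each) and by DESeq2 (0.0472), and against MyoD without MyoD replicate 3 (0.0477). Wnt9a stood at 4.35 to 7.95 CPM in MEF, 3.36 to 16.4 CPM in MyoD and 14.5 to 17.1 CPM with F/R/C. It lay higher in each F/R/C than in each MEF library and was not called (1.36 ± 0.59, adjusted p = 0.103), but was called against MEF in the fit of these 2 groups alone (1.38, adjusted p = 0.0114), and against both groups without MyoD replicate 3 (adjusted p = 0.00758 and 0.00368). The other tested ligands, Wnt2, Wnt2b, Wnt6, Wnt7b, Wnt10a, Wnt10b, Wnt11 and Wnt16, were not called in the main fit. Against MyoD, DESeq2 called Wnt2b higher (1.63, adjusted p = 0.0343) and Wnt10b lower (-1.86, 0.0480). Wnt10a (-3.32 ± 1.31, adjusted p = 0.0758 against MEF) was called lower against MEF with the replicate block (-2.98, 0.0297), by DESeq2 (0.0132) and in the fit of these 2 groups alone (0.0334). Group means of these other ligands ran from 0.107 CPM (Wnt7b in MEF) to 21.1 CPM (Wnt16 in MEF). Wnt1, Wnt3, Wnt3a, Wnt7a, Wnt8a, Wnt8b and Wnt9b were under the filter, with at most 5 counts in any library, and 0 counts in all 9 libraries for Wnt3a and Wnt9b. At this depth transcripts of those 2 genes were not detectable.

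Levels of different genes can be compared per transcript length on the deposited TPM scale. The ligands summed to 155 ± 91.1 TPM (SD, n = 3) in MEF, 129 ± 48.3 TPM in MyoD and 63.3 ± 18.8 TPM in F/R/C libraries. In MEF Wnt5a (62.1 ± 27.2 TPM), Wnt5b (50.1 ± 45.9) and Wnt16 (26.9 ± 25.9) led, within each other's spread, and Wnt5b exceeded Wnt5a in MEF replicates 1 and 2 and in MyoD replicate 1. In F/R/C libraries Wnt5a (22.3 ± 12.1 TPM) was followed by Wnt4 (10.6 ± 0.867), Wnt5b (8.67 ± 1.09) and Wnt9a (7.14 ± 0.753). By mean TPM Wnt4 had rank 9 of the 19 ligands in MEF and rank 2 in F/R/C libraries, where the ranges of Wnt5a and Wnt4 overlapped and Wnt4 was above Wnt5a in replicate 3.

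**Figure D2:**
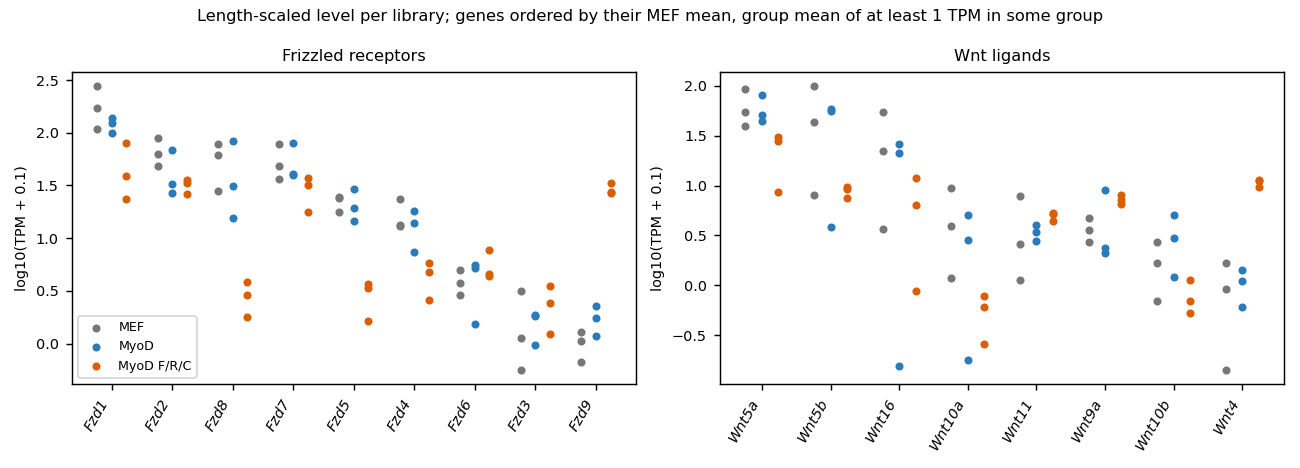
Deposited TPM, summed per gene, as log10(TPM + 0.1) for the Frizzled receptors (left) and Wnt ligands (right) with a group mean of at least 1 TPM, ordered by their MEF mean; each point is a library. Fzd9 and Wnt4, last in MEF, reach 29.2 and 10.6 TPM on average in F/R/C libraries, while Fzd5 and Fzd8 drop to 2.80 and 2.74 TPM.

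The Frizzled receptors changed in both directions, with a large rise of Fzd9 beside falls of Fzd8 and Fzd5. All 10 receptors were tested. Against MEF 2 rose, 4 fell and 4 were not called, and against MyoD 1 rose, 4 fell and 5 were not called. Fzd9 (ENSMUSG00000049551, chromosome 5) stood at 0.651, 1.05 and 1.34 CPM in MEF, 1.79, 1.10 and 2.60 CPM in MyoD and 34.1, 45.0 and 47.3 CPM in F/R/C libraries. The F/R/C libraries lay far above the others, with a log2 fold change of 5.37 ± 0.42 against MEF (adjusted p = 0.000227) and 4.53 ± 0.40 against MyoD (adjusted p = 0.000488). Fzd9 is a receptor also reported at the neuromuscular junction. Fzd3, a receptor known from axon guidance, stood at 3.54, 4.67 and 12 CPM in MEF, 6.49, 5.25 and 14.2 CPM in MyoD and 30.8, 18.4 and 14.0 CPM in F/R/C libraries. Its call against MEF was at the limit (1.65 ± 0.57, adjusted p = 0.0493). It ended in 11 of the 18 alternative settings, among them each left-out library except MEF replicate 3 and MyoD replicate 3, and the log2 fold change was 0.84 (adjusted p = 0.384) with counts scaled from TPM.

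Fzd8 stood at 256, 190 and 92.5 CPM in MEF, 260, 90.9 and 53.5 CPM in MyoD and 14.0, 10.7 and 8.55 CPM in F/R/C libraries. Every F/R/C library lay below every other, with a log2 fold change of -4.02 ± 0.64 against MEF (adjusted p = 0.00221) and -3.60 ± 0.63 against MyoD (adjusted p = 0.00412). Fzd5 stood at 67.0, 88.1 and 90.6 CPM in MEF, 52.5, 65.2 and 116 CPM in MyoD and 15.7, 13.7 and 9.03 CPM in F/R/C libraries. Its log2 fold change was -2.68 ± 0.34 against MEF (adjusted p = 0.000895) and -2.61 ± 0.34 against MyoD (adjusted p = 0.00144). Fzd5 and Fzd8 are closely related receptors.

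Fzd4, a receptor of the vascular factor norrin and of Wnt ligands, stood at 50.6, 88.9 and 52.8 CPM in MEF, 52.5, 64.5 and 30.8 CPM in MyoD and 26.0, 22.4 and 15.3 CPM with F/R/C. It fell against MEF (-1.59 ± 0.35, adjusted p = 0.00794) and against MyoD (-1.22 ± 0.34, adjusted p = 0.0261), a call that ended without MyoD replicate 1 or 2 or F/R/C replicate 2 or 3 (0.0650 to 0.0864). Fzd1, the receptor of highest mean per length in each group, stood at 243, 360 and 617 CPM in MEF, 296, 247 and 234 CPM in MyoD and 97.7, 209 and 80.1 CPM with F/R/C. It fell against MEF (-1.66 ± 0.44, adjusted p = 0.0174) and was not called against MyoD (-1.01 ± 0.43, adjusted p = 0.101). Without F/R/C replicate 1 or 3 the call against MEF ended (0.0631 and 0.0611), and without F/R/C replicate 2, the highest of its group, the one against MyoD was made (-1.54, 0.0305). Fzd7, a receptor for Wnt7a on muscle stem cells, stood at 90.6, 114 and 197 CPM in MEF, 95, 90.0 and 209 CPM in MyoD and 104, 93.7 and 67.5 CPM in F/R/C libraries. The groups overlapped (-0.60 ± 0.40, adjusted p = 0.267 against MEF; -0.57 ± 0.40, 0.300 against MyoD). Fzd10 was low in each library, with 1, 13 and 6 counts in MEF, 22, 32 and 18 in MyoD and 0, 1 and 5 in F/R/C libraries. It was called lower than in MyoD (-3.39 ± 1.02, adjusted p = 0.0326), a call that ended without MyoD replicate 1 or 2 or F/R/C replicate 1 or 2 (0.0673 to 0.112). Fzd2 and Fzd6 were not called in either comparison.

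Per length, the receptors summed to 407 ± 65.4 TPM in MEF, 301 ± 53.2 TPM in MyoD and 155 ± 46.4 TPM in F/R/C libraries, so the F/R/C sums (106 to 199 TPM) lay below those of the other groups (268 to 477 TPM). In MEF the order was Fzd1 (185 ± 84.8 TPM), then Fzd2 (66.5 ± 20.7), Fzd8 (56.1 ± 25.7) and Fzd7 (54.5 ± 21.9), which lay within each other's spread. In F/R/C libraries it was Fzd1 (47.4 ± 28.9 TPM), Fzd2 (31.6 ± 4.79), Fzd9 (29.2 ± 3.84) and Fzd7 (28.7 ± 10), again within each other's spread. Fzd9 thus stood among the leading receptors of these libraries, from 0.905 ± 0.307 TPM in MEF.

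**Figure D3:**
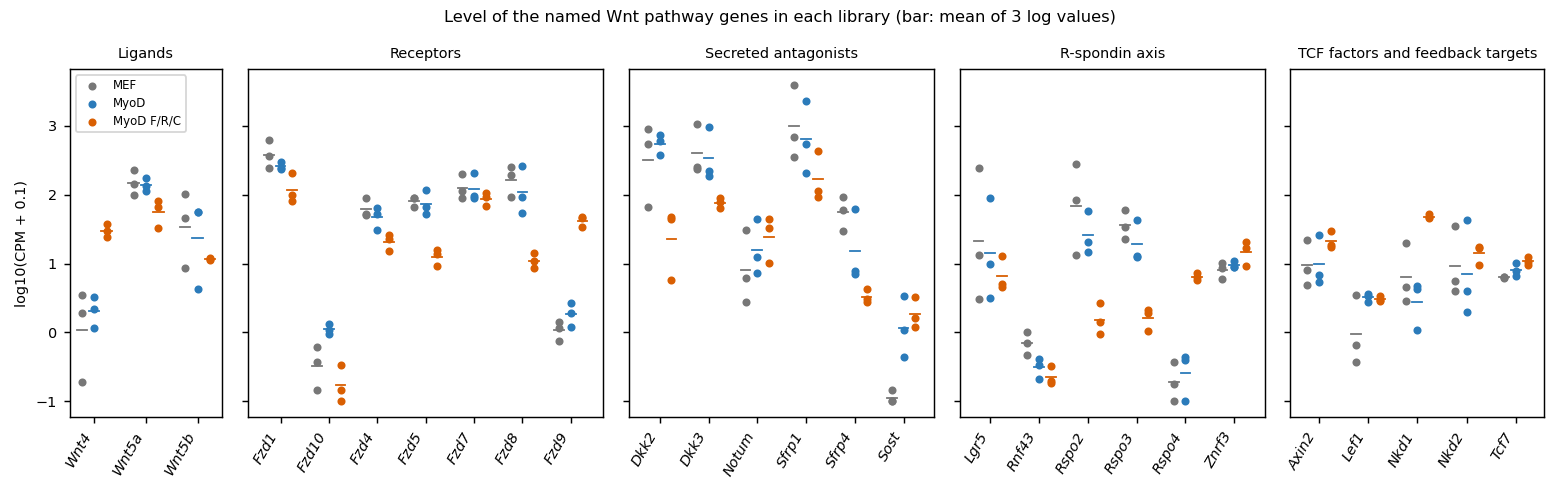
Level of the 27 named Wnt genes in each library as log10(CPM + 0.1), by role; points are libraries, short bars the mean of the 3 log values of a group. Wnt4, Fzd9, Rspo4 and Nkd1 stand apart upward in F/R/C libraries, and Fzd5, Fzd8, Rspo2 and Rspo3 downward.

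Secreted antagonists, the most abundant Wnt genes of the fibroblasts, were lower with F/R/C where they were called, apart from Sost. Of the 11, 9 were tested. Against MEF 1 rose, 3 fell and 5 were not called, and against MyoD 0 rose, 3 fell and 6 were not called. Dkk2 stood at 537, 903 and 66.0 CPM in MEF, 735, 600 and 373 CPM in MyoD and 47.0, 43.6 and 5.62 CPM in F/R/C libraries. The F/R/C libraries were the 3 lowest, although MEF replicate 3 came near them. Dkk2 fell, with a log2 fold change of -3.97 ± 1.02 against MEF (adjusted p = 0.0157) and -4.15 ± 1.03 against MyoD (adjusted p = 0.0156). Dkk3, a divergent family member that does not act as a classical antagonist, stood at 237, 252 and 1079 CPM in MEF, 223, 190 and 948 CPM in MyoD and 77.4, 90.8 and 64.0 CPM in F/R/C libraries. The third library of MEF and of MyoD stood far above the others, and each of the 6 lay above the F/R/C libraries. Dkk3 fell against MEF (-2.76 ± 0.79, adjusted p = 0.0247) and MyoD (-2.55 ± 0.79, adjusted p = 0.0352). Both calls ended without any 1 F/R/C library (0.0645 to 0.115). That against MEF also ended without MEF replicate 3 (-1.71, 0.0653), and that against MyoD without MyoD replicate 3 (-1.42, 0.110).

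Sfrp4 stood at 93.8, 30.1 and 60.6 CPM in MEF, 61.7, 7.82 and 6.88 CPM in MyoD and 4.16, 2.64 and 2.93 CPM with F/R/C. It fell against MEF (-4.24 ± 0.92, adjusted p = 0.00769) and MyoD (-2.97 ± 0.87, adjusted p = 0.0295). Against MyoD it was lost without any 1 F/R/C library or without MyoD replicate 1 (0.0687 to 0.0986), which holds most of the MyoD level; without it the log2 fold change was -1.18. Sfrp1, the antagonist of highest mean level, stood at 352, 693 and 3891 CPM in MEF, 206, 549 and 2292 CPM in MyoD and 114, 437 and 93.3 CPM in F/R/C libraries. The third MEF and MyoD libraries were again the highest and the groups overlapped, so that Sfrp1 was not called (-2.94 ± 1.18, adjusted p = 0.0797 against MEF; -2.24 ± 1.15, 0.161 against MyoD). DESeq2 called it lower against MEF (-2.92, adjusted p = 0.0128). Sfrp2 stood at 546, 110 and 114 CPM in MEF, 95.5, 17.5 and 11.0 CPM in MyoD and 22.9, 64.6 and 9.17 CPM in F/R/C libraries. Each F/R/C library lay below each MEF library, but the call missed the threshold (-2.99 ± 1.08, adjusted p = 0.0569). With the replicate number as a block, which paired MEF and F/R/C libraries, it was made (-2.75, 0.0310). It was also made in 7 other settings, among them the one without the third MEF and MyoD libraries, chosen after their values were seen.

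Sost, encoding the bone-derived inhibitor sclerostin, held 0, 0 and 1 counts in MEF, 22, 88 and 7 in MyoD and 36, 24 and 67 in F/R/C libraries. With 1 count in MEF, the ratio of summed counts per effective library size was 130 for F/R/C over MEF (22.9 to 5160, exact 95% interval, counting error only) and 114 for MyoD over MEF (20.1 to 4550). Its difference from MEF was called with F/R/C (adjusted p = 0.00469) and not with MyoD alone (0.237), and its level in F/R/C libraries (1.94 ± 1.13 CPM, SD, n = 3) was close to that in MyoD (1.55 ± 1.57 CPM; adjusted p = 0.796). Notum stood at 6.05, 30.2 and 2.63 CPM in MEF, 12.4, 44.2 and 7.17 CPM in MyoD and 44.4, 32.9 and 10.2 CPM in F/R/C libraries. At each replicate number it was lowest in MEF. It was not called (1.17 ± 0.98, adjusted p = 0.377 against MEF), but was with the replicate block (1.72, adjusted p = 0.0334). Wif1 and Dkk1, at group means of at most 4.22 CPM, were not called in the main fit. DESeq2 called Dkk1 lower against MyoD (-3.55, adjusted p = 0.0468), where MyoD replicates 1 to 3 held 2, 102 and 6 counts. Dkk4 had at most 1 count in a library and Sfrp5 had 0 counts in all 9. Per length, the antagonists summed to 1584 ± 693 TPM in MEF, 1052 ± 448 TPM in MyoD and 198 ± 126 TPM in F/R/C libraries, with F/R/C sums of 72.8 to 324 TPM below the 789 to 2378 TPM of the others.

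Within the R-spondin axis, Rspo2 and Rspo3 fell and Rspo4 rose with F/R/C. Of the 7 genes 6 were tested, with 1 higher, 2 lower and 3 not called in each of the 2 F/R/C comparisons. Rspo2, a positive regulator of Wnt signals in limb development, stood at 280, 84.8 and 13.0 CPM in MEF, 58.2, 20.3 and 14.6 CPM in MyoD and 1.30, 2.60 and 0.864 CPM in F/R/C libraries. The F/R/C libraries lay below the others, with a log2 fold change of -6.30 ± 1.18 against MEF (adjusted p = 0.00417) and -4.28 ± 1.09 against MyoD (adjusted p = 0.0170). Against MyoD it was lost without F/R/C replicate 1 or 3 (0.0603 and 0.0698). Rspo3, which acts in vessels and limbs, stood at 60.6, 34.3 and 22.8 CPM in MEF, 43.3, 12.9 and 12.4 CPM in MyoD and 1.81, 2.05 and 0.960 CPM in F/R/C libraries. Its log2 fold change was -4.60 ± 0.66 against MEF (adjusted p = 0.00137) and -3.83 ± 0.64 against MyoD (adjusted p = 0.00339). Rspo4, a family member known from nail development, held 0, 2 and 6 counts in MEF, 0, 8 and 7 in MyoD and 170, 123 and 132 in F/R/C libraries, which is 7.13, 5.61 and 6.34 CPM in the latter. It rose by 5.68 ± 1.11 against MEF (adjusted p = 0.00496) and 4.86 ± 1.05 against MyoD (adjusted p = 0.00905) on the log2 scale. Both reference groups are near the limit of detection, which leaves these sizes uncertain. On the TPM scale Rspo4 (3.91 ± 0.879 TPM in F/R/C) was below Rspo2 in each MEF library (158, 49.4 and 7.23 TPM), by less than 2 times in MEF replicate 3. Rspo1 was not called, at 0.179 to 13.0 CPM over the 9 libraries.

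Lgr5, an R-spondin receptor and stem cell marker, stood at 243, 13.3 and 2.95 CPM in MEF, 90.6, 9.63 and 3.03 CPM in MyoD and 12.8, 4.97 and 4.51 CPM in F/R/C libraries. In MEF and MyoD the first library held most of the level, with 82.4 and 29.9 times the lowest of its group, and Lgr5 was not called (-3.54 ± 1.68, adjusted p = 0.128 against MEF). Znrf3, the ligase that R-spondins restrain and itself a reported beta-catenin target, stood at 8.42, 10.1 and 5.81 CPM in MEF, 10.8, 8.88 and 8.76 CPM in MyoD and 20.4, 16.8 and 9.03 CPM with F/R/C. It was not called (0.92 ± 0.34, adjusted p = 0.0620 against MEF; 0.70 ± 0.34, 0.144 against MyoD). With the replicate block it was called against MEF (0.89, 0.0300), as it was without F/R/C replicate 3, the lowest of its group (1.19, 0.0206). Without that library it was also called against MyoD (0.97, 0.0457). Rnf43, the related ligase, held 20, 15 and 8 counts in MEF, 7, 3 and 5 in MyoD and 2, 5 and 2 in F/R/C libraries, and was under the filter. DESeq2, which tested it, called it lower against MEF (-2.20, adjusted p = 0.0288).

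Of the TCF factors and feedback regulators Nkd1 rose most, and Axin2, the customary readout of beta-catenin activity, was not called. All 5 genes were tested, with 2 higher and 3 not called against MEF and 1 higher and 4 not called against MyoD. Nkd1 (ENSMUSG00000031661, chromosome 8), which binds Dishevelled and is induced by Wnt signals, stood at 2.79, 4.43 and 20.1 CPM in MEF, 0.985, 4.65 and 4.19 CPM in MyoD and 45.4, 47.0 and 51.8 CPM in F/R/C libraries. The 3 F/R/C libraries were close to each other and above the rest. The log2 fold change was 3.87 ± 0.83 against MyoD (adjusted p = 0.00875) and 2.40 ± 0.77 against MEF (adjusted p = 0.0376). The call against MEF ended without MEF replicate 1 or 2 or any 1 F/R/C library (0.0729 to 0.118). The 3 transcripts of Nkd1 that held most of its counts were each higher in each F/R/C than in each other library. ENSMUST00000211113, which held most counts, had 30, 71 and 202 in MEF, 14, 67 and 31 in MyoD and 556, 530 and 476 in F/R/C libraries. ENSMUST00000169179, another of them, had 12, 10 and 57, then 3, 13 and 16, then 192, 199 and 308 counts. Reads were divided among these transcripts by estimation.

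Axin2, a negative feedback scaffold of the destruction complex, stood at 4.84, 8.01 and 21.6 CPM in MEF, 5.24, 6.68 and 25.8 CPM in MyoD and 29.9, 17.2 and 18.7 CPM in F/R/C libraries. The third library of MEF and of MyoD reached the F/R/C range and the others did not, so the groups overlapped (0.94 ± 0.71, adjusted p = 0.324 against MEF; 0.80 ± 0.70, 0.403 against MyoD). With both of these libraries left out, the log2 fold change was 1.82 against MEF and 1.88 against MyoD. They were left out because their values had been seen, which fixes that direction, so no p is given. Nkd2 behaved alike in part, at 5.49, 3.86 and 35.4 CPM in MEF, 1.88, 3.97 and 43.0 CPM in MyoD and 17.3, 16.9 and 9.41 CPM in F/R/C libraries. Its log2 fold change of -0.04 ± 1.16 against MEF and -0.16 ± 1.16 against MyoD (adjusted p = 0.983 and 0.928) became 1.69 and 2.31 without those libraries, again a description only. Tcf7, a factor that binds DNA with beta-catenin, stood at 6.0, 6.28 and 6.32 CPM in MEF, 9.98, 6.57 and 7.65 CPM in MyoD and 9.48, 12.5 and 10.6 CPM with F/R/C. It rose against MEF by 0.81 ± 0.25 on the log2 scale (adjusted p = 0.0332). The call ended in 9 of the 18 alternative settings (0.0518 to 0.112), among them without any 1 MEF library or F/R/C replicate 2 or 3. The 9 include the setting without the third MEF and MyoD libraries, chosen after their values were seen. Lef1, another factor of this kind, held 12, 85 and 6 counts in MEF, 73, 94 and 55 in MyoD and 79, 62 and 58 in F/R/C libraries. It was not called (1.06 ± 0.77, adjusted p = 0.309 against MEF), but was against MEF without MEF replicate 2 (2.76, 0.00743), the MEF library of highest level.

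**Figure D4:**
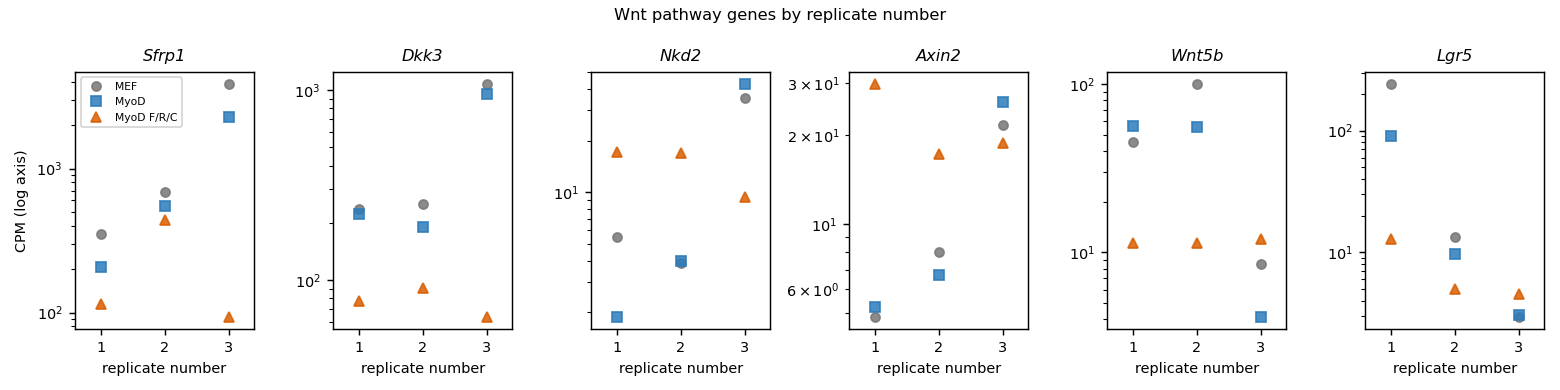
CPM on a log axis against replicate number for 6 Wnt genes chosen after their values were seen, with circles for MEF, squares for MyoD and triangles for F/R/C libraries. The third MEF and MyoD libraries lie together, high for Sfrp1, Dkk3, Nkd2 and Axin2 and low for Wnt5b and Lgr5. The F/R/C libraries show the same order as MEF and MyoD for Lgr5 and not for the other 5 genes.

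Libraries of equal number in MEF and MyoD resembled each other for many Wnt genes. In 29 of the 42 tested genes (69.0%, against 62.7% of all genes tested) the highest MEF library and the highest MyoD library had the same number. It was the third library in both for 13 genes, and the lowest was the third in both for 11. Between MEF and F/R/C libraries the highest had the same number in 12 of 42 genes (28.6%, against 37.4% of all). Within MEF the ratio of the highest to the lowest library was 82.4 for Lgr5, 21.5 for Rspo2, 11.9 for Wnt5b and 11.1 for Sfrp1, and within F/R/C libraries it was 2.83, 3.01, 1.06 and 4.68.

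MyoD alone was compared with MEF to see which Wnt genes changed without the small molecules. Of the 42 tested 0 were called by edgeR (0% of all genes were called), with 1 higher and 1 lower at an unadjusted p under 0.05, where 4.66% of all genes stood (3.35% higher, 1.31% lower). These were Sost and Sfrp2 (-2.64 ± 1.07, adjusted p = 0.989). DESeq2 called Sost alone (adjusted p = 0.00151). Of the 8 skeletal muscle markers edgeR also called 0 in this comparison. All 8 had positive log2 fold changes (median 3.23), and for 6 the MyoD libraries lay above the MEF libraries without overlap. The 0 calls therefore do not show that the Wnt genes were unchanged by MyoD alone. The groups did not overlap for 5 of the 42 genes, against 7.52% of all genes tested (4.4% higher, 3.11% lower). They were 3 higher, Sost among them, and 2 lower, Sfrp2 among them. For 4 of the genes called with F/R/C in both comparisons, the log2 fold change of MyoD against MEF was 0.23 ± 0.84 for Wnt4, 0.84 ± 0.38 for Fzd9, -0.07 ± 0.32 for Fzd5 and 0.18 ± 0.91 for Dkk2 (adjusted p = 1 each). For Rspo2 it was -2.02 ± 0.96 and for Nkd1 -1.47 ± 0.76, also not called.

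Other genes of the pathway were read from 5 lists. The lists were chosen with earlier results of these data known, so their shares beside those of all genes are a description only. Among 18 genes of the receptor complex and of ligand secretion, 3 rose and 9 fell against MEF (66.7% called, beside 37.6% of all genes; median log2 fold change -1.10) and 3 rose and 7 fell against MyoD (55.6%, beside 33.9% of all genes; -0.84). Musk, the receptor kinase of the neuromuscular junction, which has a Frizzled-like domain, rose from 0.521 ± 0.788 CPM (SD, n = 3) in MEF and 7.81 ± 6.33 CPM in MyoD to 100.1 ± 28.0 CPM (adjusted p = 0.00175 and 0.0169). Its partner Lrp4 rose from 25.8 ± 4.13 and 24 ± 6.23 CPM to 82.5 ± 35.4 CPM (0.00465 and 0.00480). The R-spondin receptor Lgr6 fell from 9.85 ± 3.82 and 13.4 ± 3.20 CPM to 0.558 ± 0.276 CPM (0.000649 and 0.000722). Reck, a co-receptor for Wnt7 ligands, fell from 137 ± 4.02 and 101 ± 20.4 CPM to 21.6 ± 10.1 CPM (0.000840 and 0.00221). Chosen after their values were seen, the co-receptor Lrp6 (241 ± 23.6 CPM in MEF, 81.2 ± 31.9 CPM in F/R/C, adjusted p = 0.00596) and the Wnt carrier Wls (612 ± 172 and 156 ± 20.3 CPM, 0.00126) also fell against MEF. Porcn of the same list rose, from 18.9 ± 3.97 and 14.2 ± 4.55 CPM in MEF and MyoD to 40.9 ± 9.9 CPM (0.0169 and 0.00591). The other co-receptor, Lrp5, was not called against MEF (-1.14 ± 0.43, adjusted p = 0.0669) or MyoD (-1.26 ± 0.43, 0.0528).

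Of 15 other secreted or membrane modulators 14 were tested, and 3 rose and 7 fell against MEF (71.4% called, beside 37.6% of all genes; median -2.37) and 4 rose and 7 fell against MyoD (78.6%, beside 33.9%; -2.08). Kremen1, a receptor for Dkk proteins, rose from 133 ± 35.4 and 134 ± 22.6 CPM to 489 ± 46.2 CPM (adjusted p = 0.000887 and 0.00133), and its relative Kremen2 from 0.106 ± 0.150 and 0.126 ± 0.148 CPM to 2.40 ± 1.04 CPM (0.0169 and 0.0218). Sulf2, which edits heparan sulfate, fell from 753 ± 278 and 687 ± 268 CPM to 53.9 ± 22.1 CPM (0.000666 and 0.00115). Bambi, a decoy receptor of TGF-beta signals and a reported beta-catenin target, fell from 30.3 ± 15.5 and 27.3 ± 7.30 CPM to 3.62 ± 0.328 CPM (0.000847 and 0.00145).

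Among 28 cytoplasmic and nuclear signalling genes 5 rose and 8 fell in each F/R/C comparison (46.4% called, beside 37.6% and 33.9% of all genes), with medians of -0.09 against MEF and -0.08 against MyoD. Ctnnb1, which encodes beta-catenin, fell from 980 ± 63.1 and 879 ± 129 CPM to 359 ± 40.4 CPM (adjusted p = 0.00145 and 0.00300). The TCF co-repressors moved apart: Tle1 fell from 143 ± 75.0 and 152 ± 60.8 CPM to 13.6 ± 3.19 CPM (0.00141 and 0.00180), and Tle3 rose from 55.8 ± 28.2 and 61.2 ± 21.9 CPM to 193 ± 11.8 CPM (0.00612 and 0.0100). Tcf7l2, a factor related to Tcf7 and named after its values were seen, fell from 37.4 ± 14.5 and 40.7 ± 21.8 CPM to 11.1 ± 4.72 CPM (0.0264 and 0.0233). Csnk1e, a kinase of Dishevelled, rose from 69.4 ± 19.0 and 66.9 ± 20.6 CPM to 166 ± 17.7 CPM (0.00777 and 0.00805).

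In the planar polarity and calcium branch 22 of 23 genes were tested, with 7 higher and 6 lower against MEF (59.1% called, beside 37.6% of all genes; median -0.04) and 6 and 5 against MyoD (50%, beside 33.9%; 0.18). Camk2b, a calcium-dependent kinase also abundant in muscle, rose from 1.93 ± 0.755 and 11.8 ± 6.59 CPM to 145 ± 42.4 CPM (adjusted p = 0.000264 and 0.00133), and the polarity scaffold Scrib from 55.8 ± 10.8 and 65.5 ± 2.85 CPM to 266 ± 27.7 CPM (0.000261 and 0.000551). Prickle2 fell from 77.0 ± 23.6 and 66.5 ± 16.1 CPM to 12.7 ± 6.16 CPM (0.00259 and 0.00466), as did the calcium-regulated factor Nfatc4, from 175 ± 28.0 and 176 ± 42.9 CPM to 43.2 ± 17.1 CPM (0.00274 and 0.00359).

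Of 26 other reported beta-catenin targets 22 were tested. Against MEF 2 rose, 6 fell and 14 were not called (median -0.95), and against MyoD 2 rose, 5 fell and 15 were not called (-0.64). The shares called, 36.4% and 31.8%, were near the 37.6% and 33.9% of all genes. The growth factor gene Fgf9 rose from 0.263 ± 0.208 and 0.859 ± 0.632 CPM to 15.5 ± 2.35 CPM (adjusted p = 0.000991 and 0.00339), and the receptor gene Tnfrsf19 from 2.49 ± 2.08 and 3.92 ± 2.40 CPM to 36.6 ± 4.53 CPM (0.00332 and 0.00772). The cyclin gene Ccnd1 fell from 663 ± 174 and 1150 ± 926 CPM to 93.0 ± 26.4 CPM (0.00479 and 0.00266). Abcb1a, an efflux pump gene, fell from 10.3 ± 3.24 and 19.7 ± 7.14 CPM to 2.80 ± 1.21 CPM (0.00875 and 0.00253). Genes of this list are known to respond to other signals as well.

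**Figure D5:**
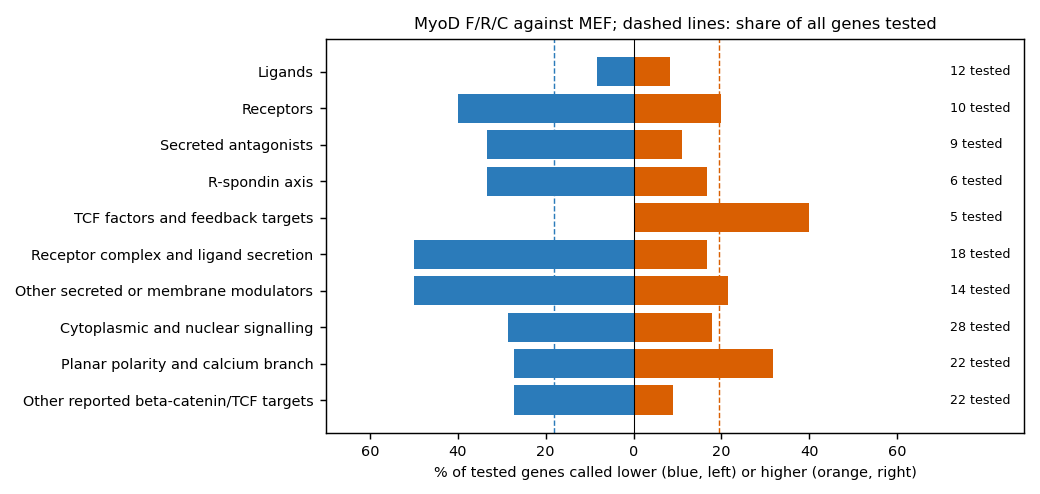
Share of tested genes called lower (left) and higher (right) in F/R/C against MEF libraries for the 5 roles of Wnt genes and the 5 lists of other pathway genes; dashed lines mark the share of all 15714 genes tested (18.1% lower, 19.5% higher). Falls outnumber rises for receptors, antagonists, the R-spondin axis and each list except the planar polarity and calcium branch, and the bars of small sets rest on few genes. Roles and lists were chosen with earlier results of these data known.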

How the data were processed

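The authors sequenced RNA of 9 libraries; the labels name RNeasy extraction and a TruSeq Stranded mRNA kit. The submitters' processing notes list bcl2fastq 2.19, Trimmomatic 0.36, kallisto 0.44 and edgeR 3.28, with GRCm38.p6; the annotation release and the use of strand are not given in the sources used here. Each deposited file gives, per the file headers, 121843 transcripts with their estimated counts (expected counts) and their deposited TPM. Of these, 121104 were joined to GENCODE M21 genes (GRCm38); the other 739 held 0.200% to 0.494% of the counts. Estimated counts were summed per gene and rounded, and deposited TPM values were summed per gene for comparisons between genes.

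The test was the quasi-likelihood F test of edgeR 4.0.16 (R 4.3.3), in 1 fit of group means over 9 libraries with TMM scaling and Benjamini-Hochberg adjustment over the 15714 genes that filterByExpr kept (minimum count 10, minimum total 15). Each SE is the size of the log2 fold change over the root of its F. The procedure was also run on simulated counts, drawn independently for each library. These lack the likeness of MEF and MyoD libraries of equal number given below, so that run cannot show how the likeness affects the calls. Promoters came from RefSeq (GRCm38.p6). Members and lists were chosen with earlier results of these data known. Genes given in full were, per role, the 3 of highest mean CPM, up to 4 more called with F/R/C by smallest adjusted p, and 9 set members; from each pathway list, up to 2 per direction by smallest p. Wnt9a, Sfrp2, Fzd3, Wnt10a, Wnt2b, Wnt10b, Dkk1, Tcf7l2, Lrp6, Wls, Porcn and Lrp5, and the cell markers given singly, were added after their values were seen.

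Deviations from the group mean correlated between equal numbers at 0.632 to 0.729 for MEF and MyoD and at 0.101 to 0.151 for MEF and F/R/C libraries, all over 0.1, and at 0.0837 to 0.164 for MyoD and F/R/C. The labels do not state that equal numbers are paired, so the main fit had no block. The block on the replicate number, which treats equal numbers as paired, is an alternative setting only. Alternatives tried were the DESeq2 1.42.0 test, edgeR scaled by DESeq2 size factors or by total counts, filters of none or of 1 CPM on average, separate fits per comparison, counts scaled from TPM, the replicate block, each library left out, and, added later, replicate 3 of MEF and of MyoD left out together.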

Additional observations from a re-analysis of the deposited data

How the results depend on the processing

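The 7 Wnt genes higher and 10 lower in F/R/C against MEF libraries became 4 to 8 and 7 to 14 when 1 library was left out. The 4 higher and 10 lower against MyoD became 4 to 7 and 5 to 10. For MyoD against MEF both counts stayed at 0 without any 1 library, and DESeq2 called 1 higher. Leaving out the third MEF and MyoD libraries together, chosen after their values were seen, reversed the direction of Nkd2. The log2 fold change of Nkd2 over left-out libraries ran from -0.55 to 1.69 against MEF and from -0.70 to 2.31 against MyoD. Because that choice followed the values, its calls are not counted here. The replicate block gave 9 higher and 12 lower against MEF (the 4 added were Sfrp2, Wnt10a, Notum and Znrf3), 4 and 10 against MyoD, and 0 and 0 for MyoD against MEF. It changed no other call among the Wnt genes. Without F/R/C replicate 1, 2 or 3 alone, 9, 7 and 10 calls of named genes were lost. Total counts as scaling moved the median log2 fold change of all genes against MyoD from -0.017 to -0.205. The cause of these differences was not tested. Under the filter, 10 Wnt genes were too low to test, and sizes for Rspo4, Sost and Fzd10 rest on few counts in at least 1 group.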
